A study of Homo sapiens with 2 samples.

Results

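At 1806 adenosines in the RNA of HEK293T cells, at least 90% of the reads still showed A after the GLORI reaction in both replicates, with at least 50 reads showing A or G in each. These almost fully methylated sites were 7.27% of the 24853 sites that both replicates list with at least 50 reads, and the other 23047 of those sites, between 10% and 94.5% in mean level, served as the comparison. The rule used the level itself, so the levels of the chosen sites are a description. What the rule did not use was where the sites lie, in which genes, how far from the next methylated adenosine, and in which sequence.

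The samples are 2 replicate libraries of a single group, HEK293T, an established embryonic kidney line, wild type, labelled Day 0 and GLORI+. Messenger RNA was selected on oligo(dT) beads, and 100 to 200 ng per library went through the reaction and a modified eCLIP preparation. Whether the replicates are separate cultures is not in the labels, so p-values between them measure a spread that may be technical. An untreated or demethylated control was not analysed here. The deposited lists give methylation sites and no expression level, so the identity of the line was not checked.

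N6-methyladenosine (m6A) is placed on nascent messenger RNA by a complex around METTL3 and METTL14, with WTAP, RBM15 and other adaptors. The complex prefers a 5-base motif called DRACH, which is A, G or T, then A or G, then the methylated A, then C, then A, C or T. Readers of the YTH family bind the mark, and YTHDF2 among them shortens the life of the transcript. ALKBH5 and FTO can remove the mark. The mark is known to be dense in long internal exons and around stop codons. In GLORI, glyoxal and nitrite deaminate unprotected adenosines to inosine, which a sequencer reads as G, and m6A resists. The share of A among the A and G reads at a position is therefore its methylation level.

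Shared sites are those found in both lists at an identical position and strand. Replicate 1 listed 72449 sites with 5221660 reads and replicate 2 listed 81554 sites with 6306522 reads, and 60462 sites were shared. By Fisher's exact test, two-sided, with Benjamini-Hochberg adjustment, 0% of the 60462 shared sites differed between the replicates, and 1850 of them had an unadjusted p under 0.05. Scaling a chi-square statistic by the dispersion of the sites left the adjusted count at 0, with 3059 unadjusted, a count that the scaling itself holds near the threshold. The dispersion was 0.931, where counting error alone gives about 1. Only sites called in both lists enter it, which can leave out sites where the replicates differ. The replicates were counted as 1 sample, so values are given for each replicate with no SD. Intervals are 95% Wilson intervals that cover counting error only. Sites of 1 gene share their RNA and are not independent.

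Sequence could be read only where a site fell in a window given by RefSeq for GRCh38.p14, from 250 nt before to 50 nt after an annotated gene start or in a microRNA hairpin. This held for 5 of the 1806 almost fully methylated sites, shown here as an example of the bases around them, 5′ to 3′ on the strand of the RNA, with the 5 bases centred on the measured A in capitals. Both sites in FAM89A lie in the MIR1182 hairpin, at chr1:231019832-231019852 and chr1:231019911-231019924 on the minus strand. The unnamed site in the NCAPD2 window is at chr12:6493952-6493972, the TLNRD1 site at chr15:81001953-81001973 and the unnamed site 16 nt before the annotated start of EN2 at chr7:155458103-155458123, all on the plus strand.
FAM89A, first: gagggatgTGACTgttgggaa
FAM89A, second: gGGACTtgtcactg
NCAPD2 window: tgagatttGAACTcggtattt
TLNRD1: aggagcgcGGACAgtgagttt
EN2 window: gaagtcgaGGACTtggctctg
All 5 had a DRACH motif, and 2 of them the form GGACT. Their levels in replicates 1 and 2 were 99.0% and 93.4% in the first FAM89A site and 99.1% and 98.1% in the second, which ends near the edge of the hairpin. They were 95.4% and 96.8% in the NCAPD2 window, 95.4% and 93.4% in TLNRD1 and 99.2% and 98.8% before EN2, from 62 to 270 reads in each replicate. With 5 sites, the interval of the share in DRACH runs from 56.6% to 100%.

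Of the comparison sites in such windows, the highest and the lowest in level and those at a gene's first nucleotide are shown for contrast. The highest were in CES2 (chr16:66935437-66935457, plus), which codes for a carboxylesterase, in TAF6L (chr11:62787261-62787281, plus), in CREBZF (chr11:85663725-85663745, minus) and in SPRY1 (chr4:123398150-123398170, plus), an antagonist of growth factor signalling. The lowest were in the tubulin gene TUBB (chr6:30720347-30720367, plus), in SRI (chr7:88220026-88220046, minus) and in ROMO1 (chr20:35699413-35699433, plus). Sites at the first annotated nucleotide of a gene are shown by TUBB4B (chr9:137241277-137241297, plus) and JPT1 (chr17:75154502-75154522, minus).
CES2, mean level 90.4%: cccacctaTGACTgctcagtc
TAF6L, mean level 87.9%: gcgctctcGGACTactcgctg
CREBZF, mean level 87.2%: ccttagtgGGACAtcttcacc
SPRY1, mean level 87.0%: tttttctgAGACTtgggaagc
TUBB, mean level 10.2%: tctccctcTCAGAaccttcct
SRI, mean level 10.2%: gctgcggcGCAGTctgcagca
ROMO1, mean level 10.5%: tgagagacGTAGAgctgagcg
TUBB4B, first nucleotide, mean level 78.8%: cgtcggttGTAGCactctgcg
JPT1, first nucleotide, mean level 78.1%: gacaggcgGCAGCggcggctc
The 4 highest all hold DRACH, and the 3 lowest and both sites at the first nucleotide do not. Among the 468 comparison sites in windows, 112 had DRACH (23.9%, 20.3 to 28.0%). The 172 of them at a gene's first nucleotide had it in 5 (2.91%), and the other 296 in 107 (36.1%). The first nucleotide of a capped transcript is known to carry a different mark, an adenosine methylated on both base and ribose, when it is an A. For scale, 7.25% of all adenosines in the windows lie in DRACH and 0.475% in GGACT on the given strand, where windows can overlap.

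To use more sites, the shared sites in windows that were not at the first nucleotide were grouped by mean level without a minimum of reads. DRACH was present at 60 of 222 sites with a level of 10 to 20% (27.0%), at 43 of 58 with 60 to 80% (74.1%) and at 22 of 23 with 90% or more (95.7%, 79.0 to 99.2%). The share rose along the scale, and the sites at 90% or more are its top end. Of these 23, 9 had GGACT, 8 had GAACT, 2 had TGACT, and the remaining 4 each had a form of their own, of which GGACG was outside DRACH. Median levels also differed between forms of DRACH, with no interval computed. Over all levels, 126 shared sites in GGACT had a median of 48.9%, with 9 of them at 90% or more. The 36 in GGACC had 28.6%, with 0 at 90% or more. At the share in GGACT few of 36 sites would be there, so this 0 shows little. GGACC was picked for its low median after the values were seen. In each sequence given, the measured base was A. These windows cover gene starts, which may not stand for the rest of the transcript.

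The almost fully methylated sites reached a median of 95.7% in replicate 1 and 95.4% in replicate 2. By mean level, 148 sites lay at 90 to 92%, 412 at 92 to 94%, 477 at 94 to 96%, 498 at 96 to 98% and 271 at 98 to 100%. The threshold in both replicates itself thins out the lowest of these classes. At 19 sites every read in both replicates showed A. The depth was similar to the rest: a median of 84 and 99 reads in replicates 1 and 2, against 88 and 103 at the comparison sites. At this depth the lower bound of the level on summed counts was at or above 90% at 1208 sites (66.9%), and at the rest a level below 90% lies within the counting error. The median absolute difference between replicates was 1.71 points, which the rule of at least 90% in both replicates itself keeps small. Of the sites, 21 (1.16%) had an unadjusted Fisher p under 0.05, against 3.06% of all shared sites. The rule can lower the first of these shares, so they do not compare reproducibility.

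**Figure D1:**
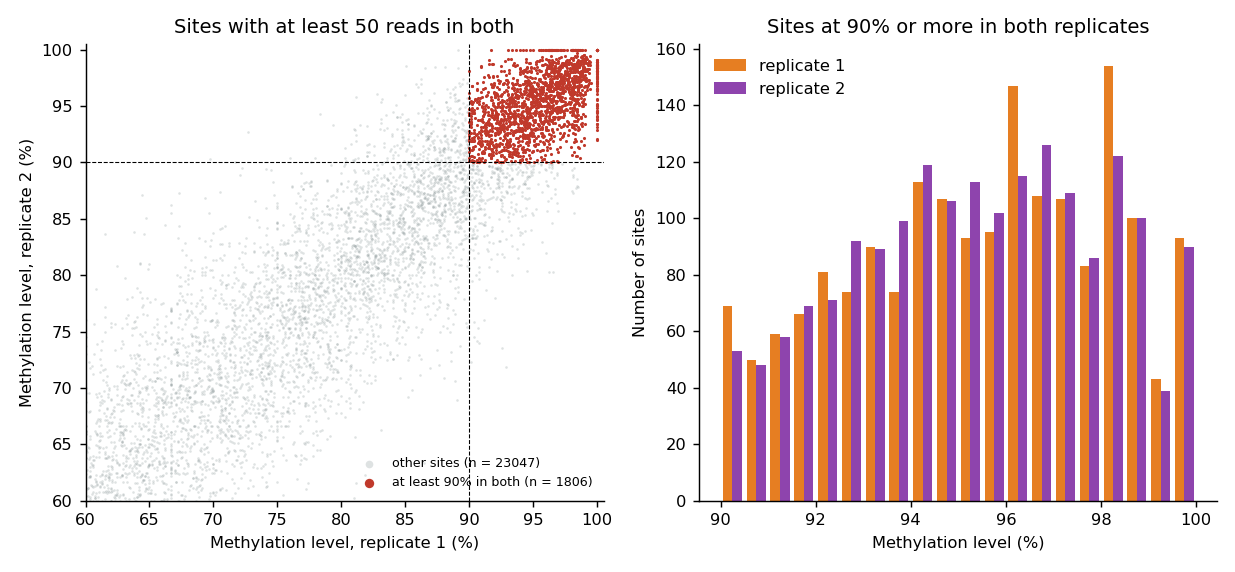
Left, the methylation level of each site with at least 50 reads in both replicates, replicate 1 on the x axis and replicate 2 on the y axis, both in percent from 60; red points are the 1806 sites at 90% or more in both, grey points the others, dashed lines the threshold. Right, the number of chosen sites by level in each replicate, where the choice sets the lower edge; the medians are 95.7% and 95.4%.

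The choice was also made in 1 replicate alone and read in the other, a measurement that choice did not use. Of 2235 sites at 90% or more in replicate 1, 2229 were listed in replicate 2 and 2161 had at least 50 reads there. In replicate 2 their median was 94.6% and 83.6% (82.0 to 85.1%) were again at 90% or more, with the lowest at 71.8%. The reverse choice gave 2657 sites, of which 2114 had enough reads in replicate 1, with a median of 94.8%, 85.4% (83.9 to 86.9%) at 90% or more and a lowest level of 69.7%. Sites that missed the level in the second reading mostly missed it narrowly: 14 and 8 sites fell below 80%.

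The sites nearest the threshold show how fine it is. Just inside were sites in WDR6 (90.6% and 90%, 224 and 220 reads), IRS4 (90% and 94.2%), FZR1 (90% and 92.8%), ZNF24 (90.6% and 90%) and UBL4A (92.3% and 90%). Just outside were sites in LOC150776 (215 of 239 reads in replicate 1, and 90.8% in replicate 2), MIEF1 (92.1% and 89.9%), C6orf89 (93.9% and 89.9%), UQCRFS1P1 (90.3% and 89.9%) and WDTC1 (89.9% and 92%). The intervals of these 10 sites on summed counts overlap across the threshold.

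The deepest of the sites show levels measured closely. The deepest lies on the minus strand at chr1:91387534, has no gene name in the lists and falls within the span of HFM1, a meiotic helicase gene, and it read 99.4% and 99.5% from 5085 and 5918 reads. Whether those reads belong to another copy in the genome was not tested. ACTG1, cytoplasmic gamma actin, had 95.2% and 95.7% from 2715 and 3227 reads at chr17:81511529. IRS4, an adaptor of insulin receptor signalling, read 93.1% and 91.7% from 2100 and 2623 reads at chrX:108733013. XIST, the noncoding RNA of X inactivation, had 96.7% and 97.2% at shared site 3 of 64 from the 5′ end, 19 nt from a site at 15.5%. The 95% intervals on summed counts of this XIST site and the IRS4 site at 108733013, 96.4 to 97.5% and 91.6 to 93.1%, do not overlap, so these 2 levels differed by more than counting error. HSPA1B, an inducible heat shock protein, had 98.3% and 98% at chr6:31829914 and 96.2% and 94.9% at chr6:31829931, with a site at 72.0% between them. HSPA1B has a near-identical neighbour gene, so its reads may be shared with that copy. TSC22D3, a glucocorticoid-induced leucine zipper gene, and RHOB, a small GTPase, had 94.9% and 94.1%, and 92.6% and 92.9%.

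At some sites the reads left little room below complete methylation. The site of TMEM203, a membrane protein, at chr9:137204315 showed A in all 94 and 118 reads, which puts the lower bound at 98.2%. PML, the scaffold of nuclear bodies, showed A in all 85 and 114 reads at chr15:74035514, and ADNP, a chromatin regulator, in all 70 and 113 at chr20:50891297. Every read at these 3 sites thus showed A, and the lower bounds of the latter pair were 98.1% and 97.9%. HNRNPA0, an RNA-binding protein of the hnRNP family, had 99.5% and 98.9% at chr5:137753963, and a second site at chr5:137752947 had 98.9% and 98.5%. FEN1, the flap endonuclease of DNA replication, had 99.4% and 98.7%, JUN, a subunit of AP-1, 99.1% and 98.3% at chr1:58781894, and UBL4A, which helps insert membrane proteins, 98.5% and 100%.

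The sites were spread over many genes. Among 5823 named genes with a site of at least 50 reads in both replicates, 1062 (18.2%) had an almost fully methylated one, 677 of them exactly 1, 235 exactly 2 and 150 at least 3. Those 150 genes held 606 of the sites, 34.6% of those in named genes. Genes with such a site had a median of 13 shared sites, against 4 in the genes with none. A gene with more sites has more chances to hold such a site, so the split itself favours this difference. The annotated length was nearly the same, 22680 against 23768 nt. The share of sites at 90% or more rose with the number of shared sites of the gene, from 1.42% (0.795 to 2.53%) where the gene had a single site to 5.57% at 6 to 10 sites and 11.4% (10.6 to 12.3%) at 21 or more. By annotated gene length the share was highest between 2000 and 5000 nt, 10.0%, and between 6.61% and 8.53% in the other classes. By summed reads it moved the other way, from 7.79% at 100 to 150 reads to 5.16% above 1000.

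Of the 1062 genes with an almost fully methylated adenosine, 991 also had a site of at least 50 reads outside the choice. Over the 997 of these genes with at least 2 sites of 50 reads, the median of the gene medians was 49.9% with all sites counted. In those 991, it was 36.9% over those sites alone, a value that leaving out the chosen sites lowers. It was 31.7% in genes with several sites and none chosen. In 65 genes the sole site of that depth was at 90% or more, in 6 genes both of 2 were, and in 0 genes all of 3. These counts are given without the number of genes that have as many sites. With 7.27% of all sites at 90% or more, genes with all of several sites there would be few in any case if sites were independent. The reads at the almost fully methylated sites were close to those of their genes' other sites, at a median ratio of 0.989, and exceeded them in 485 of these genes (48.9%).

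By the gene names in the lists, IRS4, SPEN, WDR6, ASXL1 and NFE2L1 had 8 sites each, the most of any gene. Unnamed almost fully methylated sites at chr1:15873989 and chr1:15874015 fell within the span of SPEN on its strand and are not counted. IRS4 ran from 11.4% to 98.1% over 43 sites, with its 8 between order 10 and order 40 from the 5′ end. SPEN, a transcriptional corepressor, had 8 of 80, WDR6, a WD-repeat protein that acts in transfer RNA methylation, 8 of 48, ASXL1, a subunit of the Polycomb deubiquitinase, 8 of 50, and NFE2L1, a regulator of proteasome genes, 8 of 33. These genes held both ends of the scale, since each also had sites below 14%. SON, a splicing cofactor of nuclear speckles, had 7 of 74. TSPYL1, a nucleosome assembly protein relative, had 7 of 21, PATZ1, a zinc finger transcription factor, 7 of 18, and EXTL3, a heparan sulfate glycosyltransferase, 7 of 19. TMEM203 had the highest share of these 10 genes, 7 of 15, or 46.7%, in an annotated gene of only 1567 nt.

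**Figure D2:**
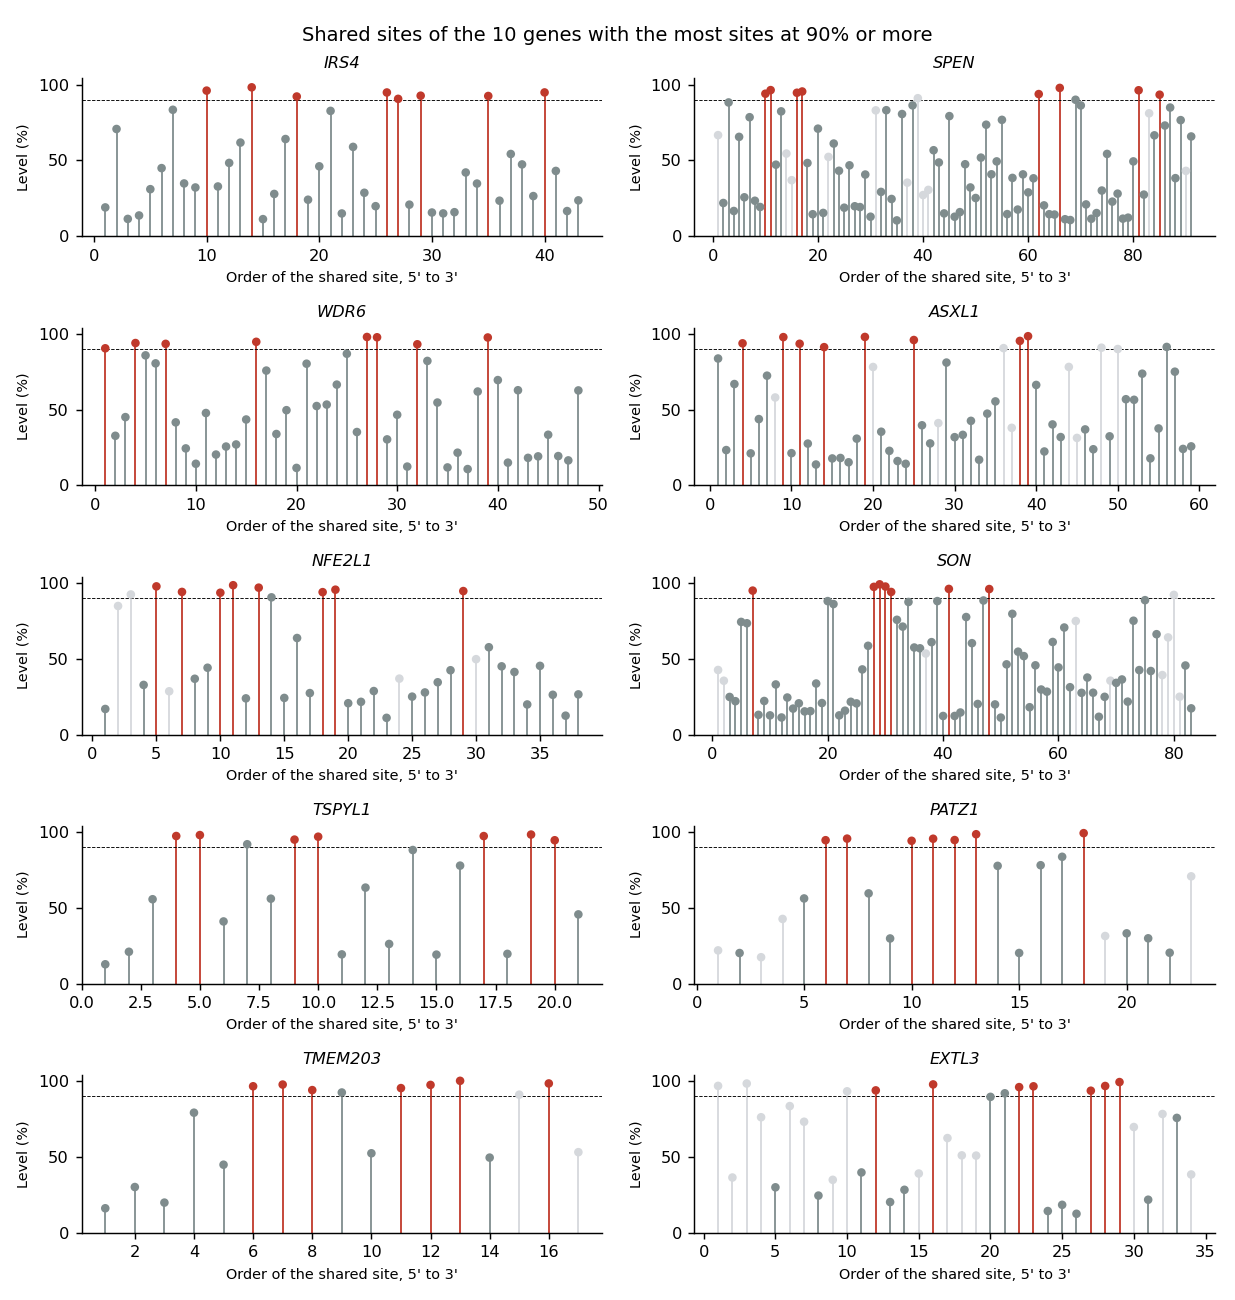
The mean methylation level in percent (y axis) of every shared site of the 10 genes with the most almost fully methylated sites, in order from 5′ to 3′ (x axis). Red marks the sites at 90% or more with at least 50 reads in both replicates, dark grey the other sites of that depth, light grey sites below it, the dashed line 90%. Each gene holds sites at 90% or more as well as sites at far lower levels, and in PATZ1 sites 10 to 13 are all red.

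Runs of neighbouring shared sites that were all at 90% or more were short. Of the sites in named genes, 1400 had no such site next to them in the order of the gene, 136 runs held 2, 19 runs held 3 and 6 runs held 4. The runs of 4 were in RBBP6 (56 nt, 94.3 to 98%), SON (91 nt, 93.9 to 98.9%), PATZ1 (161 nt, 94 to 98.4%), NECTIN2 (163 nt, 93.1 to 96.8%), PFKFB3 (193 nt, 93.1 to 97.2%) and C5orf30 (337 nt, 96.3 to 100%). In SON the 4 sites, at chr21:33551426, 33551456, 33551486 and 33551516, were spaced exactly 30 nt apart. SON codes for a protein with tandem repeats, and how reads that fit several repeat units were placed is not stated.

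Sites of 16 lists of genes of known function were set beside the 7.27% of all sites, as counts with no test. Transporters and developmental transcription factors had the intervals that lay above 7.27%. Ribosomal protein and oxidative phosphorylation genes, which have few sites per gene, had those that lay below it. The transporter sites lay in genes with a median of 11 shared sites, and the sites of these transcription factors in genes with 17. Over all genes with 11 to 20 shared sites the share was 9.21%. Both of the higher intervals hold that share, so a difference from genes with as many sites was not shown. Transporters of the SLC and ABC families had 44 of 413 sites (10.7%, 8.03 to 14%). SLC25A11, the mitochondrial oxoglutarate carrier, had the deepest, 91.4% and 93.4% from 476 and 588 reads. Chromatin remodelling genes had 22 of 222 (9.91%, 6.64 to 14.5%), with 5 in ARID1A, 4 each in CHD7 and BCL7A and the deepest in SRCAP (94.8% and 95.9%), but 5.43% of 92 sites when at least 100 reads were asked for. Homeobox, SOX, FOX, KLF and SP factors had 51 of 533 (9.57%, 7.35 to 12.4%), an interval that begins close to the background. SOX4 held 6 of them, the deepest at 90.6% and 93.3%, FOXO3 held 5, and 14 of these genes, 10 of them HOX genes, held exactly 1. No such site was held by 39 of the 67 genes of this list, by 69 of the 91 transporter genes and by 20 of the 29 remodelling genes.

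Genes that make, remove or read m6A had 15 of 154 sites (9.74%, 5.99 to 15.4%), an interval that holds the background. The 15 lay in 5 of the 17 genes, and the other 12 had none. RBM15B and RBM15, adaptors of the methyltransferase complex, had 5 of 26 and 2 of 34, YTHDF2, a reader that promotes decay, had 5 of 21 from 91.7% to 97.2%, and WTAP had 1 of 13. MAT2A, which makes the methyl donor S-adenosylmethionine and whose transcript is methylated by METTL16, had 2 of 5 at 91.1% and 91.9%, and the lowest of its 5 was 76.2%. The genes named beyond the deepest one of each list were picked after their values were seen.

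The other lists were near the background or below it. Immediate early and stress-response genes had 18 of 200 (9%), among them 4 in JUN, the deepest at 97% and 96%. Histone methylation enzymes had 31 of 352 (8.81%), the deepest in SETD5 (92.5% and 91.1%), and ZNF genes 33 of 379 (8.71%), the deepest in ZNF703 (92.8% and 92.5%). Ubiquitin ligase genes of the RNF, TRIM, FBX and KLHL families had 32 of 398 (8.04%), led in depth by RNF26 (92.9% and 95.6%). All of these intervals hold 7.27%. Wnt, TGF-beta, Notch and Hippo genes had 16 of 213 (7.51%), with TGFB1 at 93.7% and 91.2%. SR, hnRNP and spliceosome genes had 22 of 337 (6.53%), DNA repair genes 6 of 93 (6.45%), 5 of them in the mismatch repair gene MSH6, and mitotic and cell cycle genes 19 of 323 (5.88%), the deepest in CDC25A (96% and 95%). Transport and trafficking genes had 19 of 344 (5.52%), led by the nucleoporin NUP62 (98% and 96%), and deubiquitinases 6 of 110 (5.45%), led by USP10 (95.7% and 91.8%). Cytosolic ribosomal protein genes had 0 of 57 (Wilson upper limit 6.31%, or 5.26% by the rule of 3 counts over the number of sites), and their highest level was 83.5%. Nuclear oxidative phosphorylation genes had 0 of 54 (6.64%, or 5.56% by that rule), with a highest mean level of 90.1%. Their sites lay in genes with a median of 5 and 2 shared sites, and over all genes the share was 1.42% at 1 shared site, 1.87% at 2 and 3.48% at 3 to 5. Both upper limits lie above these shares, so a difference from genes with as few sites was not detectable at this depth. With at least 100 reads, the shares moved by over 1.5 times in 4 of these lists. These were ubiquitin ligase genes (4.93%), deubiquitinases (2.33%), signalling genes (4.17%) and DNA repair genes (17.2% of 29 sites). At that depth the background was 690 chosen sites beside 9594 comparison sites, and each list rests on fewer sites.

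The almost fully methylated sites stood closer to another site than the rest did. Of the 1753 in named genes, 848 (48.4%, 46.0 to 50.7%) had another shared site of the gene within 30 nt, against 7862 of 22091 comparison sites (35.6%, 35.0 to 36.2%). The median distance to the nearest was 32 nt against 46 nt. Part of this went with the gene: among the 7893 comparison sites of the same 1062 genes the share was 44.4% (43.3 to 45.5%) and the median distance 36 nt. The order held in genes of like number of sites from 3 upwards, for example 51.0% against 41.3% in genes with 11 to 20 shared sites and 52.5% against 46.0% in those with 21 or more. In genes with 2 sites it ran the other way, 9.52% of 21 against 14.5% of 1104.

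The nearest site was in most cases of intermediate or low level. Within 200 nt its median was 49.9% beside an almost fully methylated site (quartiles 25.8 and 83.1%) and 40.5% beside a comparison site (22.0 and 70.9%). Beside comparison sites of the same genes it was 48.4%, so the higher level of the neighbours was shared with the gene's other sites. The neighbour was itself almost fully methylated for 13% of the sites, for 6.06% of all comparison sites and for 15.0% of those in the same genes. Those genes were picked because they hold such a site, which raises the last share. With such neighbours left out, the medians were 42.8%, 37.4% and 40.1%.

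**Figure D3:**
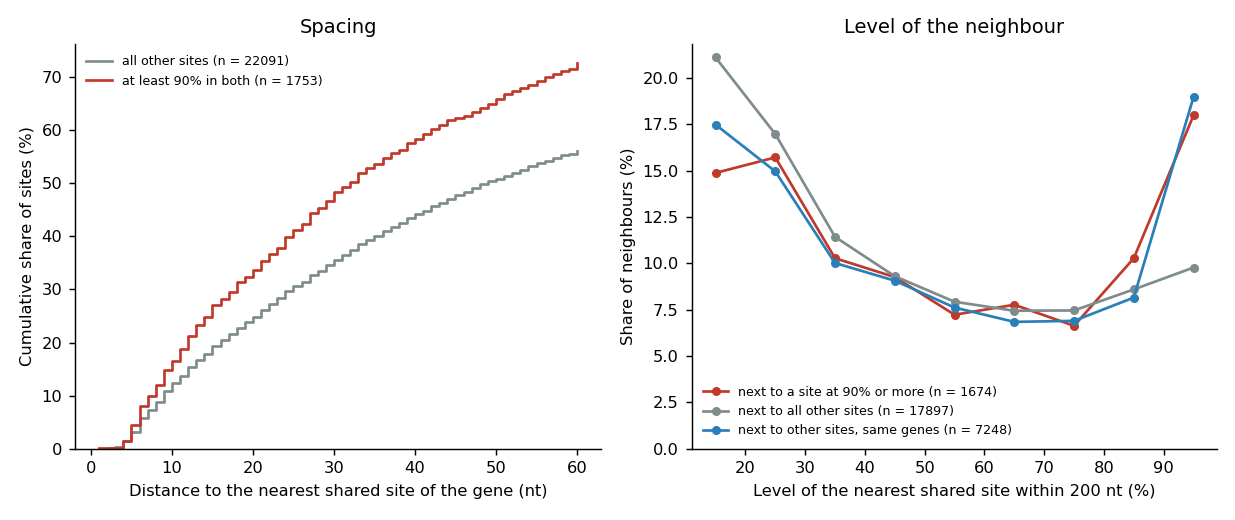
Left, the cumulative share of sites (y axis, percent) with another shared site of the gene within the distance on the x axis (nt); the curve of the almost fully methylated sites (red) runs above that of the comparison sites (grey). Right, the share of neighbours (y axis, percent) by level of the nearest shared site within 200 nt (x axis, percent); the red and the blue line, for comparison sites of the same genes, both end above the grey line at 90 to 100%, at 18.0% and 19.0% against 9.77%.

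Close neighbours could differ almost as far as the scale allows. For 739 sites with a neighbour of at least 50 reads within 30 nt, the median difference was 47.2 points. The median level of these neighbours was 48.5%, and choosing sites for their high level itself makes the difference wide. Of these neighbours, 131 (17.7%) were below 20%, whereas 119 (16.1%) were almost fully methylated too. Low neighbours were not particular to the chosen sites. Within 200 nt, the nearest shared site was below 20% for 14.9% of the almost fully methylated sites. It was below 20% for 21.1% of all comparison sites and for 17.5% of those in the same genes. CALR, the chaperone calreticulin of the endoplasmic reticulum, had 95.7% and 96.3% at chr19:12944002 and 11.3% and 10.4% at a site 8 nt towards the 5′ end. TCEANC2 had 96.3% and 95.9%, with 11% and 10.3% at a site 9 nt towards the 3′ end. RBM14, an RNA-binding coactivator, went from 98.5% and 97.6% to 11% and 11.2% over 12 nt. POFUT1, which adds fucose to Notch receptors, had the widest gap of these, 87.2 points over 24 nt, and NOTCH2 itself had 94.7% and 96.4% beside 10.7% and 12.3% at the same distance. SOX4, TTYH3 and SPTBN1 had gaps of 81.0, 82.7 and 82.3 points within 29, 17 and 26 nt. In all 8 of these pairs, which were chosen as those with the lowest neighbour, the replicates differed by at most 5.04 points at either site.

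At the other end, 68 pairs of almost fully methylated sites lay within 30 nt of each other. The closest were in SLC7A5, the large neutral amino acid transporter, 4 nt apart at 98.8% and 97.9%, and 98.6% and 99.0%. Pairs 5 nt apart occurred in TSPYL1, in ICMT, the carboxyl methyltransferase of prenylated proteins, in MSH6 and in LDB1, and a pair 6 nt apart in ZNF703. Both sites of each pair were above 93% in both replicates except the second of LDB1, at 90.8% and 90.3%. Reads that cover both adenosines of such a pair are shared between them.

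Along the gene, these sites lay inside the row of shared sites and seldom at its ends. In genes with at least 3 shared sites, 83 of 1721 (4.82%, 3.91 to 5.94%) were the 3′-most site and 74 (4.30%, 3.44 to 5.36%) the 5′-most. Of the comparison sites 10.0% and 11% were. When only sites of at least 50 reads were ordered, the 3′-most shares were 8.69% and 14.8%. In the same genes the shares were 5.30% (4.83 to 5.82%) at the 3′ end, where the intervals overlap, and 6.50% (5.97 to 7.06%) at the 5′ end, where they do not. Genes with 3 to 5 sites went the other way at the 3′ end, 27.0% of 126 against 24.2%. In genes with 5 or more sites, the shares by 20% steps of the order from 5′ to 3′ were 16.6%, 23.1%, 22.4%, 22.3% and 15.6%, while the comparison sites had 21.2% in the first step and 22.1% in the last. Interior sites made up 92.7% of the almost fully methylated sites, 83.6% of the comparison sites and 88.8% of those in the same genes.

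**Figure D4:**
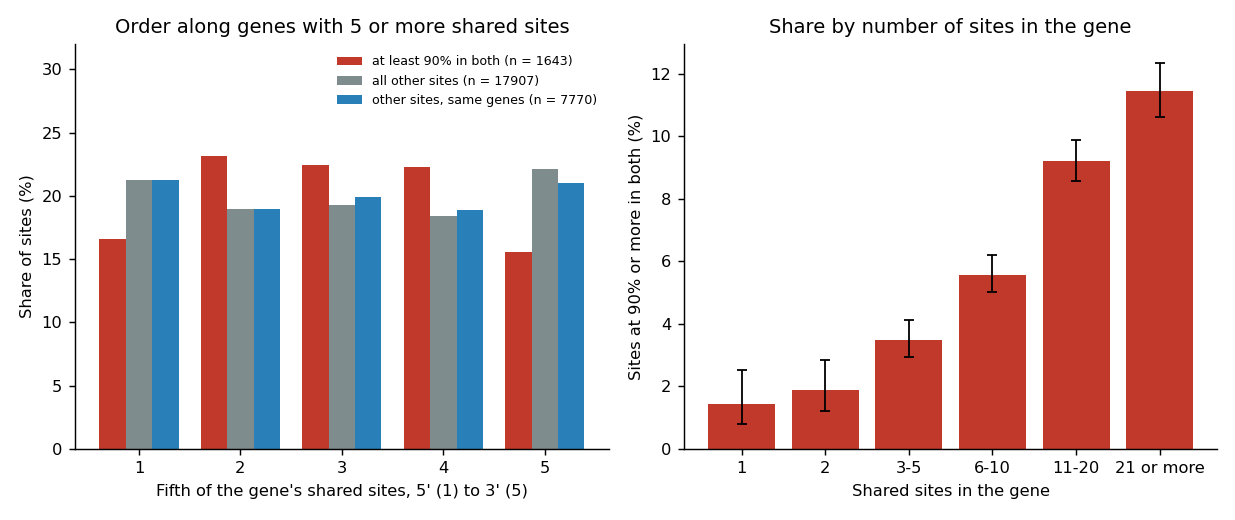
Left, the share of sites (y axis, percent) in each of 5 equal steps of the shared sites of a gene, in order from 5′ to 3′ (x axis), for genes with at least 5; the almost fully methylated sites (red) are fewer in both outer steps than all others (grey) and than others of the same genes (blue). Right, the share of sites at 90% or more in both replicates (y axis, percent, with 95% Wilson intervals) by the number of shared sites of the gene (x axis), rising from 1.42% to 11.4%.

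Relative to the annotated gene, the last 10% of its length held 705 of 1744 sites (40.4%, 38.1 to 42.7%) and 44.4% (43.7 to 45.0%) of the comparison sites. The last 1000 nt held 21.1% against 28.3%. In the same genes the comparison sites had 38.7% and 20.2%, so within these genes the almost fully methylated sites were not the lower ones, and the intervals overlap. The annotation used here gives only the ends of genes, introns included, and exon, intron and untranslated region were not analysed here. Only 11 of the sites (0.627%) were the sole shared site of their gene, against 3.45% of the comparison sites, and from 1 replicate alone the share was 0.272 to 0.370% against 2.49 to 2.90%.

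Spacing and the place at either end of the row changed gradually with the level. From sites of 10 to 20% to sites of 90% or more in mean level, the share with another shared site within 30 nt rose from 30.1% (28.9 to 31.2%) to 47.7% (45.6 to 49.9%). The share at the 3′ end fell from 11.7% to 4.84%, and that at the 5′ end from 14.8% to 4.59%. The class of 80 to 90% lay next to that of 90% or more on each scale, with 44.3% within 30 nt, 6.78% at the 3′ end and 6.42% at the 5′ end.

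**Figure D5:**
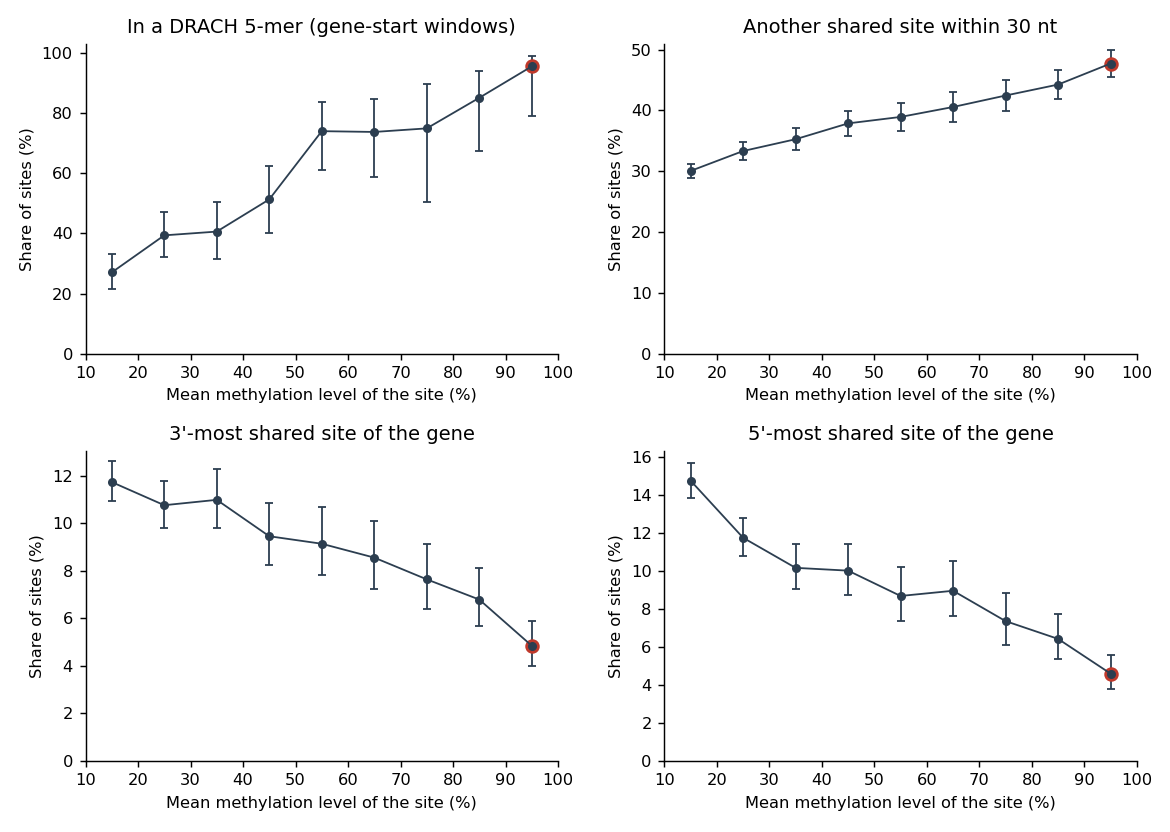
Shares of sites (y axes, percent, with 95% Wilson intervals) by mean methylation level in classes of 10 points (x axes): in a DRACH 5-mer, for all shared sites in gene-start or hairpin windows but not at the first nucleotide; with another shared site of the gene within 30 nt; 3′-most; and 5′-most, the last 3 for sites of 50 or more reads in each replicate and the last 2 in genes with at least 3 shared sites. The class at 90% or more is the larger red point. It has the highest share in the upper panels, 95.7% and 47.7%, and the lowest in the lower ones, 4.84% and 4.59%.

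The conversion fraction that the lists give for each gene moved with the choice. Its median was 96.3% and 96.4% in replicates 1 and 2 at the almost fully methylated sites, 97.2% and 97.3% at the comparison sites, and 96.4% in both at comparison sites of the same genes. How it was computed, and whether it counts methylated adenosines as unconverted, is not stated, and its part in the levels was not tested.

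By annotated type the sites were much like the comparison sites: 96% against 95.2% lay in protein-coding genes, 26 sites (1.49%) against 1.75% in long noncoding RNA genes, and 44 (2.52%) against 3.01% in pseudogenes. In genes annotated as long noncoding RNA, besides XIST, the deepest were in VPS9D1-AS1 (95.3% and 98.5%), LINC01000 (94.5% and 94.9%), SNHG16 (90.6% and 95.7%), HCG11 (91.2% and 93.1%) and the readthrough gene MROH7-TTC4 (97.2% and 96.8%). The deepest of the sole sites of a gene outside pseudogenes were in HADH, an enzyme of fatty acid oxidation, at 94.5% and 93.8%, and in MRPL32, a mitochondrial ribosomal protein, where all 70 and 85 reads showed A. Among pseudogenes, LOC110467526 had 98.9% and 98.8%, and C19orf48, which RefSeq annotates as a transcribed pseudogene, 94.6% and 97.3%.

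ACTG1 appeared together with 6 of its pseudogenes. ACTG1P9, ACTG1P3, ACTG1P24, ACTG1P11, ACTG1P1 and ACTG1P18 each had a site at 90% or more, from 90.8% to 95.7% on summed reads, beside 95.5% in ACTG1. The 3 deepest of these copies had 4950, 2315 and 2238 summed reads, against 5942 in ACTG1. ACTG1 had 4 other sites from 12.4% to 84.7%. ACTG1P24 and ACTG1P1 had further sites at 86.6% and 86.9%, and ACTG1P11 had further sites at 14.1% and 15.3%. A further 6 pseudogenes of ACTG1 had 8 sites of at least 50 reads between 16.7% and 81.1% and none at 90%. Reads of near-identical copies cannot be told apart here, so how many of these are separate sites is not known.

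In all, 53 of the sites had no gene name in the lists, or 2.93% (2.25 to 3.82%) against 4.15% (3.90 to 4.41%) of the comparison sites. Of the 53, 35 (66.0%, 52.6 to 77.3%) fell inside the span of an annotated gene on either strand, against 71.2% of the unnamed comparison sites. After the site in HFM1, the deepest were at chr5:28708381 (93.9% and 93.0% from 869 and 1055 reads), 35271 nt from the nearest annotated gene, at chr6:144370983 within UTRN (98.4% and 98.2%) and at chr11:62374143 within ASRGL1 (95% and 92.9%). The next were at chr9:121172009 within CNTRL (100% and 97.9%) and at chr14:19301882 within DUXAP10 (96.3% and 97%). A site at chr2:132279429 (100% and 98.6%), named after its values were seen, lay 5 nt from RNA28SP, a pseudogene of 28S ribosomal RNA.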

How the data were processed

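The 2 lists, 1 for each replicate, hold only sites the authors called. Per the file headers each line gives a count of A plus G reads, a count of A reads, their ratio as a fraction, a p-value before and after adjustment, and for the gene a conversion fraction and a coverage. The deposited p-value and the deposited gene coverage signal were not used further. The smallest values listed were 15 reads, 5 A reads and 10%. Bowtie, STAR, SAMtools and Trim Galore 0.6.6 are named without roles in the submitters' processing notes, with the build GRCh38. The site caller is not given in these sources.

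Levels were computed here from the counts with Python 3.11.15, NumPy 2.4.6, pandas 2.3.3, SciPy 1.17.1 and statsmodels 0.14.6, and drawn with Matplotlib 3.10.9. Fisher's exact test ran over all 60462 shared sites at a threshold of 0.05. Its script was tested on simulated data. All other comparisons are shares or medians with 95% Wilson intervals and no test. Neighbours were shared sites of the same named gene and strand. Gene ends and biotypes came from RefSeq for GRCh38.p14, which held 5770 of 5823 gene names (99.1%).

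The members, the 16 gene lists and the rules were chosen with earlier results of these data known. Sites named were the 12 deepest, the 10 with the highest lower bound, the 10 genes with the most, the 5 on each side of the threshold, 8 pairs with the lowest neighbour, the 6 closest pairs, the 6 deepest sole sites of a gene, the 8 deepest noncoding, the 6 deepest unnamed and the deepest of each list. Sites outside DRACH could not be ranked without a genome. Alternatives changed the reads, the level, the distance, the replicates used, the set of genes and the comparison sites.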

Additional observations from a re-analysis of the deposited data

How the results depend on the processing

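Against all comparison sites, the order was kept in the alternatives run for the motif, spacing, neighbour level, 3′-most, last 10% and sole-site results (8, 12, 10, 10, 9 and 8). Against comparison sites of the same genes only, it turned for the last 10% (40.4% against 38.7%) and the last 1000 nt (21.1% against 20.2%), and against comparison sites in genes with 3 to 5 sites it turned for the 3′-most share (27.0% against 24.2%). The number of sites was 3064 with at least 30 reads, 690 with at least 100, 743 at a level of 95% and 3542 at 80%. With 30 reads, 45.9% had a neighbour within 30 nt; the share was 16.5% within 10 nt, 85.5% within 100 nt, 42.2% for neighbours of at least 50 reads and 53.7% for neighbours in either list. The share in the last 10% of the gene was 37.7% at a level of 95%, and 21.1% lay in the last 1000 nt. The 3′-most share was 3.65% in genes with at least 5 sites and 8.69% when only sites of at least 50 reads were ordered. GGACT held 2 of the 5 almost fully methylated sites in windows (40%, 11.8 to 76.9%), against 8.97% of the 468 comparison sites there. The motif alternatives rest on only 3 to 14 chosen sites each. With at least 100 reads, 87.5% of the sites chosen in replicate 1 and 89.96% of those chosen in replicate 2 were again at 90% or more. At that depth, 11 of the 16 gene lists stayed within their main interval, and chromatin remodelling genes had 5.43%, ubiquitin ligase genes 4.93%, deubiquitinases 2.33%, signalling genes 4.17% and DNA repair genes 17.2%, the last on 29 sites. With 1 replicate alone the median neighbour level was 44.7 to 46.3%, the 3′-most share 3.89 to 4.12% and the sole-site share 0.272 to 0.370%. The cause of these shifts was not tested beyond what the fewer or other sites imply. The lists leave out sites under their own limits, so a distant neighbour can be an unlisted one. No paired analysis was possible because the labels give only 1 group.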

Other observations

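A few sites reached 90% with at least 50 reads in 1 replicate and were not listed in the other, 6 from replicate 1 and 4 from replicate 2. From replicate 1, an unnamed site on chromosome 8 had 98.4% of 190 reads, a site of TSPYL1 98.9% of 87 and a pair of sites of WDR82, 93.2% of 73 and 100% of 60. From replicate 2, a site of IER2, an immediate early gene, had 96% of 100 reads and a site of SOX4 96.7% of 60. TSPYL1, IER2 and SOX4 also had almost fully methylated sites shared by both lists. The reason they are missing from the other list is not stated.

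By chromosome, the share of sites at 90% or more ran from 5.79% on chromosome 21 to 10.0% on chromosome 8 among the numbered chromosomes. Distances of 4 to 30 nt to the nearest shared site were multiples of 3 in 42.3% of the almost fully methylated sites (39 to 45.6%) and in 39.9% of the comparison sites (38.8 to 41.0%), and these intervals overlap.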
